A study of Mus musculus with 4 samples.

Results

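The 9 genes described here act on the Notch receptor between its synthesis and its output in the nucleus. They are *Psen2*, *Psenen*, *Ncstn* and *Aph1a* (subunits of gamma-secretase), *Adam10* and *Adam17* (surface proteases), *Numb* (an endocytic adaptor), *Lfng* (a glycosyltransferase) and *Tle5* (a Groucho-family protein). They were taken by symbol, through the Ensembl ID, from the 56748 gene IDs in the count files. All 9 had reads, and 7 had enough reads to be tested. RNA came from C2C12, an established mouse myoblast line with the genotype given as WT. The scrambled group carried a scrambled shRNA control, and the knockdown group a cocktail of 3 shRNAs against *Hnrnpl*, which encodes the RNA-binding protein hnRNP L. The plasmids also encoded an eGFP reporter, and both groups were puromycin-selected stable cells. Each group held 2 libraries from different passages of 1 selected stable line, so the effect of the shRNA and a difference between 2 cell lines cannot be told apart. The labels place scrambled 1 and knockdown 1 in batch 1 and scrambled 2 and knockdown 2 in batch 2.

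Notch is a surface receptor that is activated by a ligand on a neighbouring cell. Before that, sugars added in the secretory pathway, among them those of the Fringe enzymes, tune which ligand it answers to. Ligand binding exposes a site that ADAM proteases cut, and gamma-secretase then cuts within the membrane and frees the intracellular domain, which joins RBPJ in the nucleus and switches on target genes that Groucho/TLE corepressors otherwise hold down. Numb lowers the receptor at the surface by promoting its uptake. In muscle, Notch signalling is known for keeping satellite cells and myoblasts from differentiating.

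Direct RNA reads were counted per gene, with 1229424 to 1676911 reads counted on genes per library. At this depth a count of 0 allows 1.79 to 2.44 CPM (3 reads), and such limits and all intervals of reads cover counting error only. Reads set aside as ambiguous or for low quality lie outside these limits, so a count of 0 does not show that a gene was silent. *Hnrnpl* itself had 358 and 656 reads in the scrambled and 242 and 258 in the knockdown libraries, a log2 fold change of -0.78 (adjusted p = 0.0112, edgeR quasi-likelihood, standard error 0.18). Its adjusted p was 0.194 without scrambled 2, with a log2 fold change of -0.48, and 0.150 without knockdown 1. Of 10 myoblast markers, 6 were tested, and *Cdh15*, *Chrna1*, *Ncam1* and *Des* were lower in knockdown at an adjusted p under 0.05 from edgeR (0.0308 for *Des*), where 3.44% of all genes tested were lower. The calls of *Cdh15* and *Chrna1* held in all 14 alternatives and that of *Ncam1* in 12, with an adjusted p of up to 0.0875. The call of *Des* held in 8 of 14 alternatives. With the batch as a block it was lost at a log2 fold change of -0.55 (adjusted p = 0.0526 from edgeR), against -0.56 in the main fit. The parametric fits of DESeq2 also lost it, at -0.57 (adjusted p = 0.208 and 0.234). Leaving out scrambled 2 (-0.41), knockdown 1 (-0.63) or knockdown 2 (-0.50) lost it too. The others tested were *Myf5*, with 113 to 190 reads per library and a log2 fold change of -0.16 (adjusted p = 0.615 from edgeR), and *Vcam1* with 0.29 (adjusted p = 0.707). The summed level of the marker list was 733 and 852 CPM in the scrambled and 465 and 405 in the knockdown libraries, and *Myog* and *Pax7* were at 0 and *Myod1* had 1 read in all. All 7 macrophage markers together had 3 to 10 reads per library, all 5 endothelial markers 0 or 1, and *Ptprc*, *Adgre1*, *Itgam*, *Pecam1* and *Kdr* were at 0. The 6 fibroblast markers had 29 and 38 reads in the scrambled and 20 and 13 in the knockdown libraries, with *Col1a1*, *Lum* and *Thy1* at 0. The part of the lower myoblast markers in the results below was not tested. These are bulk samples, in which fewer cells of a type and less RNA per cell cannot be told apart.

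None of the 7 tested members passed the test at an adjusted p under 0.05, where 5.95% of the 8670 genes tested did. *Psen2* and *Adam17* were not tested. At an unadjusted p under 0.05 edgeR gave 2 of the 7 tested members, *Lfng* and *Tle5*, both higher in knockdown, against 21.8% of all genes tested (10.3% higher and 11.5% lower). With the batch as a block the unadjusted p from edgeR was 0.00579 for *Lfng* and 0.0617 for *Tle5*. No member had an adjusted p under 0.05 from DESeq2 either, which called 2.79% of genes with the Wald test and local fit, 1.31% with the Wald test and parametric fit, and 2.53% and 1.12% with the likelihood-ratio test and the local and parametric fit. The same held for edgeR with the batch as a block (5.81% of genes called) and with the median of each chromosome removed (3.46%). A log2 fold change above 0 was found for 6 of the 7 tested members, and for 49.9% of all genes tested. The median was 0.38 over the 7 members and 0.00 over all genes tested. In all 7 tested members the knockdown libraries lay on 1 side of the scrambled libraries (6 higher, 1 lower), which held for 52.4% of all genes tested. A gene must have enough reads in 2 libraries to be tested, so these counts describe the 7 genes that did and not the list of 9.

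**Figure D1:**
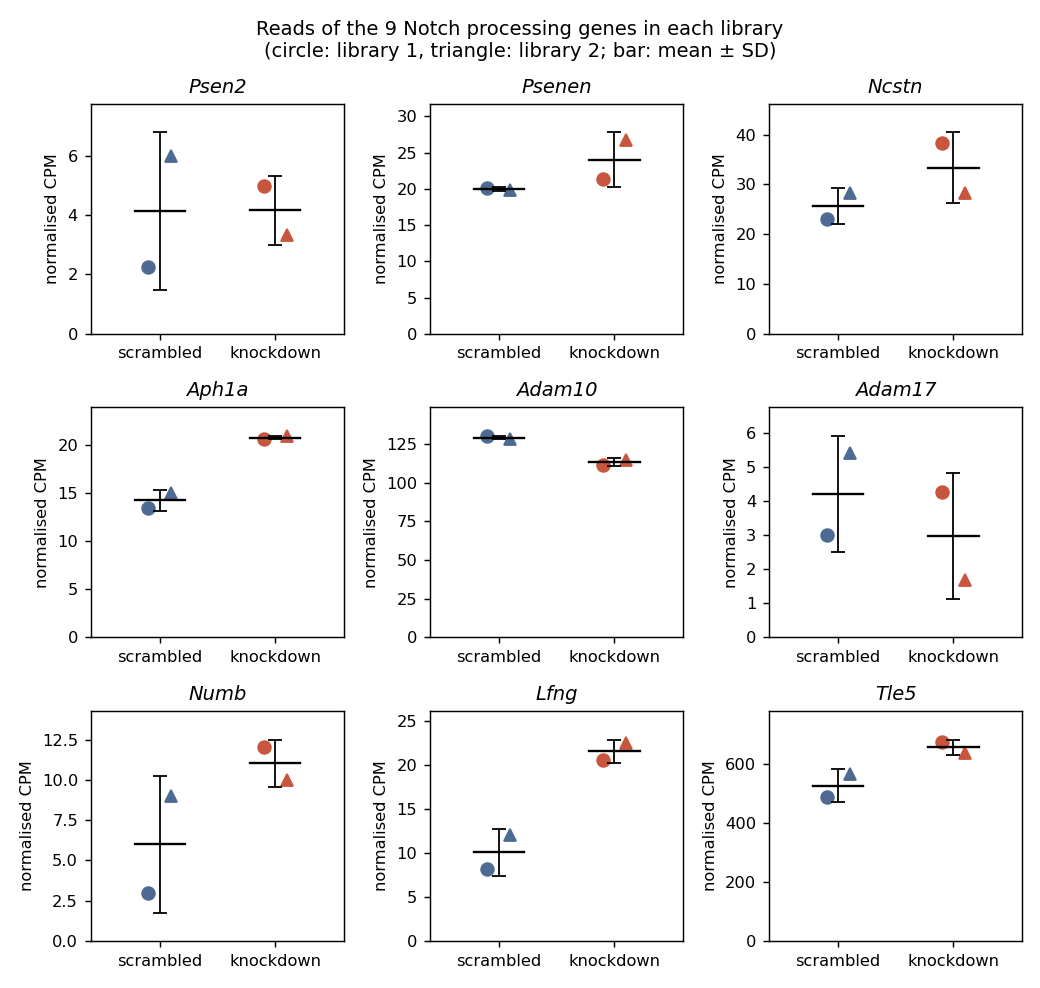
Normalised CPM (reads scaled to the library's normalised total) of each of the 9 genes, on linear axes from 0. Blue points are scrambled and red points knockdown libraries, circles mark library 1 and triangles library 2, and black lines give the mean ± SD of 2 libraries. *Lfng* lay at 8.22 and 12 in scrambled and at 20.6 and 22.5 in knockdown, whereas the groups overlapped for *Psen2* and *Adam17*.

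To place the genes by level, normalised CPM was divided by the length of the longest annotated transcript, and the genes were ordered by the mean over all 4 libraries. *Tle5* came first with 248 CPM per kilobase in scrambled and 309 in knockdown. *Adam10* (27.5 and 24.2 CPM per kilobase) and *Psenen* (19.6 and 23.6) came next, and their libraries overlapped. *Ncstn* (6.34 and 8.24), *Lfng* (4.30 and 9.17) and *Aph1a* (4.89 and 7.12) formed a run in which neighbours overlapped, as did *Numb* (1.12 and 2.07), *Psen2* (1.12 and 1.13) and *Adam17* (0.773 and 0.547). A direct RNA read comes from 1 molecule, so undivided reads also count molecules. Without the division, in the same mean over the 4 libraries, *Ncstn* stood above *Psenen* and *Aph1a* above *Lfng*, and the other places were the same. Within the knockdown group alone undivided *Lfng* (21.6 CPM) was above *Aph1a* (20.7), and within the scrambled group *Adam17* (4.19) was above *Psen2* (4.12), differences within the spread between libraries.

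*Lfng*, or Lunatic fringe, adds N-acetylglucosamine to O-fucose on the Notch extracellular domain and is itself a Notch target in several tissues. Its gene (ENSMUSG00000029570.6) is on chromosome 5, forward strand, at 140593075 to 140601300 in GRCm39, and no exon of another gene in the count files overlaps it. It had 11 and 20 reads in the scrambled and 29 and 27 in the knockdown libraries, so both knockdown libraries were above both scrambled libraries. The level was 10.1 ± 2.68 CPM for scrambled and 21.6 ± 1.34 CPM for knockdown (SD, n = 2 for each). The fitted change was 2.08-fold, a log2 fold change of 1.06 with a 95% interval from 0.34 to 1.78 (adjusted p = 0.0754 from edgeR). Within batch 1 the log2 ratio was 1.33 and within batch 2 it was 0.91. The adjusted p of edgeR lay on the other side of 0.05, at 0.0487, when at least 10 reads were asked for in every library, a filter that tests 7705 genes and calls 6.52% of them. It was over 0.05 in the other 13 alternatives, up to 0.855, and 0.0765 with the batch as a block. Chromosome 5 had a median log2 fold change of 0.23, and with the chromosome medians removed *Lfng* stood at 0.83.

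The RBPJ core letters TGGGAA were searched on both strands of the 300-base RefSeq promoter windows (250 bases before a start and 50 after), which hold 12 windows for 8 of the 9 members and none for *Tle5*. The letters were in at least 1 window of 4 members, and in 28.3% of the 27025 genes with a window. *Lfng* had them in both orientations, 108 and 135 bases before the start. The matches of all 4 members are shown, since they include *Lfng*, which had the highest log2 fold change, and *Psen2*, with a log2 ratio of -0.04, with the motif or its reverse complement in capitals.
Lfng, forward match, chr5:140592976-140593005: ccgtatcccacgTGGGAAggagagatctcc
Lfng, reverse match, chr5:140592949-140592978: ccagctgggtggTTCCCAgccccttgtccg
Psenen, chr7:30262704-30262733: gcttaggagcgtTGGGAAgtgtagtttctg
Aph1a, chr3:95801218-95801247: gccttccgggggTGGGAAttagatgggagg
Psen2, chr1:180073587-180073616: agcacaggagacTTCCCAcagatgtttatc
The sequences are RefSeq windows of GRCm38.p6, printed along the gene's own strand (forward for *Lfng* and *Aph1a*, reverse for *Psenen* and *Psen2*), with positions from their exact and only match in GRCm39. The match at *Aph1a* begins 3 bases before the start that at *Psenen* 92 bases and that at *Psen2* 89 bases before it. For *Lfng*, *Psenen* and *Psen2* this RefSeq start lies inside the GENCODE gene span. A match of these letters is a description and not a measured binding site.

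Of the other Fringe genes, *Rfng* (Radical fringe) had 39 and 48 reads in the scrambled and 57 and 37 in the knockdown libraries, with a log2 fold change of 0.31 (adjusted p = 0.503 from edgeR). *Mfng* (Manic fringe) had no reads in any library. *Lfng* therefore made up 22% and 29.4% of Fringe reads in the scrambled and 33.7% and 42.2% in the knockdown libraries. The 95% exact binomial intervals of the summed shares, 18.6% to 35.2% in scrambled and 29.6% to 45.6% in knockdown, overlapped. Of 14 Notch glycosylation genes 12 were tested and none passed an adjusted p under 0.05 from edgeR. At an unadjusted p under 0.05 there was 1 of the 12, *Lfng*, where 21.8% of all genes tested passed. After it *Gxylt2*, a xylosyltransferase that acts on O-glucose, had the smallest p, with a log2 fold change of -0.39 (adjusted p = 0.253 from edgeR). Without single libraries *Gxylt2* lay between -0.70 and -0.15, and its log2 ratio was 0.03 within batch 1 and -0.85 within batch 2.

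Gamma-secretase is built from a presenilin, nicastrin, an APH1 protein and PEN2. *Psenen* (PEN2, which triggers the self-cleavage of presenilin) had 27 and 33 reads in the scrambled and 30 and 32 in the knockdown libraries. Its level was 20.0 ± 0.256 CPM for scrambled and 24.0 ± 3.79 CPM for knockdown (SD, n = 2 for each), with libraries that were close but did not overlap. The log2 fold change was 0.25, with a 95% interval from -0.36 to 0.87 (adjusted p = 0.660 from edgeR), and it was 0.09 without knockdown 2 and 0.42 without knockdown 1. Within the batches the log2 ratios were 0.08 and 0.43. The gene is on chromosome 7, reverse strand, at 30261080 to 30263562. On the opposite strand, exons of *U2af1l4* and *Gm49396* cover 22.9% of its exonic bases. If strand was not used in the counting, reads that touch exons of both genes would have been set aside as ambiguous.

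*Ncstn* (nicastrin, the large glycoprotein that admits substrates) had 31 and 47 reads in the scrambled and 54 and 34 in the knockdown libraries. The levels were 23.2 and 28.2 CPM in the scrambled and 38.4 and 28.3 in the knockdown libraries, so scrambled 2 and knockdown 2 almost coincided while knockdown 1 stood higher. The log2 ratio was accordingly 0.73 within batch 1 and 0.01 within batch 2. Fitted over all libraries it was 0.38, with a 95% interval from -0.17 to 0.93 (adjusted p = 0.433 from edgeR), and 0.13 without knockdown 1. *Ncstn* is on chromosome 1, reverse strand, at 171893580 to 171910369, a chromosome with a median log2 fold change of 0.19.

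*Aph1a* (a scaffold subunit) had 18 and 25 reads in the scrambled and 29 and 25 in the knockdown libraries, or 14.2 ± 1.10 CPM and 20.7 ± 0.164 CPM (SD, n = 2 each). The knockdown libraries lay above the scrambled ones by more than the spread within either group. With so few reads the fitted log2 fold change of 0.53 still had a 95% interval from -0.13 to 1.20 (adjusted p = 0.344 from edgeR). The log2 ratio was 0.62 within batch 1 and 0.47 within batch 2. The gene is on chromosome 3, forward strand, at 95801233 to 95805901, where exons of *Car14* on the other strand cover 12.6% of its exonic bases. *Aph1b*, the alternative scaffold, had 26 and 27 reads in the scrambled and 19 and 18 in the knockdown libraries, a log2 fold change of -0.31 (adjusted p = 0.629 from edgeR) on chromosome 9, whose median was -0.37. With the chromosome medians removed *Aph1b* stood at 0.05. *Aph1c* had 2 reads, both in knockdown 1, and as a near copy of *Aph1b* its reads may be split or set aside. The share of *Aph1a* among the APH1 genes was 40.9% and 48.1% in the scrambled and 58.0% and 58.1% in the knockdown libraries. The intervals of the summed shares, 34.6% to 55.3% and 47.4% to 68.2%, overlapped.

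*Psen2*, presenilin 2, is a catalytic subunit that resides mainly in late endosomes and lysosomes. It had 3 and 10 reads in the scrambled and 7 and 4 in the knockdown libraries, with no separation of the groups, and it did not have enough reads to be tested. The log2 ratio of the summed reads was -0.04, with a 95% exact interval from -1.34 to 1.24, which takes in a 2-fold change in either direction. The log2 ratio was 1.15 within batch 1 and -0.85 within batch 2. *Psen2* is on chromosome 1, reverse strand, at 180054569 to 180091003.

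Over the 6 subunit genes listed, 4 were tested, 3 with a log2 fold change above 0 and 1 below, and none passed an adjusted or unadjusted p under 0.05. Their reads summed to 78.4 and 85.2 CPM in the scrambled and 100.2 and 94.2 CPM in the knockdown libraries. Of 10 genes listed as partners of the complex, none passed an adjusted p under 0.05. The smallest adjusted p among them was that of *Bsg* (basigin), with a log2 fold change of 0.35 (adjusted p = 0.125 from edgeR), followed by *Ubqln1* (ubiquilin 1) with 0.29 (adjusted p = 0.276).

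**Figure D2:**
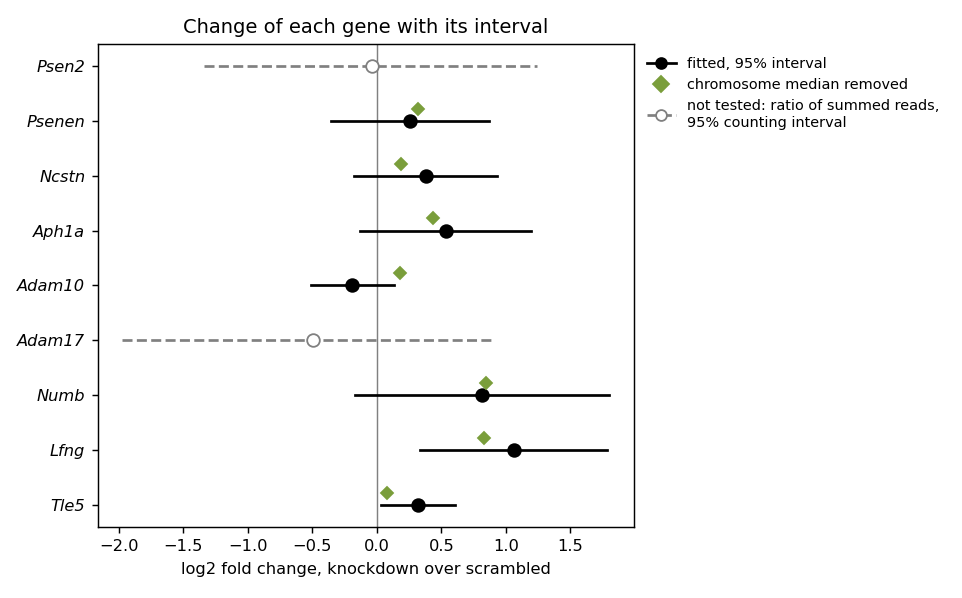
Log2 fold change of knockdown over scrambled for each gene. Black points and lines are the fitted values and 95% intervals of the 7 tested genes, green diamonds the fitted values with the chromosome medians removed, and open points with dashed lines the ratio of summed reads and its 95% counting interval for *Psen2* and *Adam17*. The intervals of *Lfng* (0.34 to 1.78) and *Tle5* (0.03 to 0.60) lay above 0 before adjustment, and *Adam10* moved from -0.19 to 0.18 when the median of its chromosome was removed.

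*Adam10* is the principal protease of the ligand-dependent cut of Notch. Its gene is on chromosome 9, forward strand, at 70586221 to 70687511, with no exon of another gene over it. It had 174 and 214 reads in the scrambled and 157 and 138 in the knockdown libraries. Scaled to the library, these were 130 and 128 CPM in the scrambled and 112 and 115 CPM in the knockdown libraries, and *Adam10* was the tested member that lay lower in both knockdown libraries. The log2 fold change was -0.19, with a 95% interval from -0.51 to 0.13 (adjusted p = 0.514 from edgeR), so a fall below 0.701 of the scrambled level was outside the interval. Within the batches the log2 ratios were -0.22 and -0.16. Genes on chromosome 9 had a median of -0.37. Once the chromosome medians were taken off, the sign of *Adam10* turned, to 0.18 (adjusted p = 0.677 from edgeR).

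*Adam17*, which sheds TNF and many other surface proteins and can cut Notch independently of ligand, was rare in these reads. It had 4 and 9 reads in the scrambled and 6 and 2 in the knockdown libraries, with overlapping groups, and was not tested. The log2 ratio of summed reads was -0.50, with a 95% exact interval from -1.97 to 0.89. The log2 ratio was 0.51 within batch 1 and -1.70 within batch 2. It is on chromosome 12, reverse strand, at 21373510 to 21423672. *Adam10* made up 97.8% and 96.0% of the reads of both proteases in the scrambled and 96.3% and 98.6% in the knockdown libraries.

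Among 10 ADAM genes 7 had reads, 4 were tested, and none passed an adjusted p under 0.05. *Adam9* had the smallest adjusted p, with a log2 fold change of 0.38 (adjusted p = 0.209 from edgeR). Among 17 regulators of ADAM10 and ADAM17, 10 were tested, and 2 were higher at an adjusted p under 0.05, against 2.51% of all genes tested. Both were TspanC8 tetraspanins, membrane proteins that carry ADAM10 out of the endoplasmic reticulum and to the cell surface. *Tspan17* had 25 and 38 reads in the scrambled and 74 and 56 in the knockdown libraries, so that every knockdown library lay above every scrambled one. It rose by a log2 fold change of 1.25 (edgeR adjusted p = 0.00435, standard error 0.24). Without knockdown 1 the call was lost at 1.16. With the parametric fit of DESeq2 it was lost at 1.25 (adjusted p = 0.156 for Wald and 0.179 for the likelihood ratio). *Tspan5* had 59 and 101 reads in the scrambled and 119 and 102 in the knockdown libraries. It rose by 0.68 on the log2 scale (edgeR adjusted p = 0.0378, standard error 0.19). This call was lost with the chromosome medians removed, at a log2 fold change of 0.58 (adjusted p = 0.108 from edgeR). In all 4 DESeq2 fits it was lost at 0.68 (adjusted p from 0.220 to 0.619). It was also lost without scrambled 1, without knockdown 1 and without knockdown 2, at log2 fold changes of 0.48, 0.68 and 0.67. The other TspanC8 genes with enough reads, *Tspan14* and *Tspan15*, had log2 fold changes of -0.44 and 0.22 (adjusted p = 0.364 and 0.638 from edgeR). *Timp3*, an inhibitor of metalloproteases that include ADAM17, had 33 and 60 reads in the scrambled and 21 and 19 in the knockdown libraries. It stood at -0.996 on the log2 scale (adjusted p = 0.0584 from edgeR), and the adjusted p was under 0.05 in 4 of 14 alternatives, with a range from 0.0145 to 0.754. *Furin*, which cuts Notch during its maturation, stood at -0.54 (adjusted p = 0.104 from edgeR), and *Rhbdf1*, an escort of ADAM17, at -0.10 (adjusted p = 0.871). *Rhbdf2* had 3 to 9 reads per library and was not tested.

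*Numb* had 4 and 15 reads in the scrambled and 17 and 12 in the knockdown libraries. In normalised CPM it stood at 2.99 and 9.0 in the scrambled and 12.1 and 10.0 in the knockdown libraries, so scrambled 1 was low and scrambled 2 close to the knockdown libraries. The log2 fold change of 0.82 had a 95% interval from -0.17 to 1.80 (adjusted p = 0.331 from edgeR). The size depended on the scrambled libraries: the log2 fold change was 0.30 without scrambled 1 and 1.85 without scrambled 2. The log2 ratio was 2.02 within batch 1 and 0.15 within batch 2. The gene spans chromosome 12 from 83840808 to 83968997 on the reverse strand, and exons of *Papln* and *Gm46367* on the other strand cover 32.2% of its exonic bases. Its homologue *Numbl* had 17 and 15 reads in the scrambled and 5 and 10 in the knockdown libraries, a log2 fold change of -0.88 (adjusted p = 0.294 from edgeR) that lay between -1.57 and -0.36 without single libraries. Its log2 ratio was -1.84 within batch 1 and -0.11 within batch 2. The share of *Numb* in the reads of this pair was 19.0% and 50% in the scrambled and 77.3% and 54.5% in the knockdown libraries. The groups did not overlap in this share, although the intervals of the summed shares, 24.1% to 51.9% and 50.1% to 79.5%, did. These shares were not tested, and with 2 libraries per group an exact permutation test would reach no p under 0.333.

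**Figure D3:**
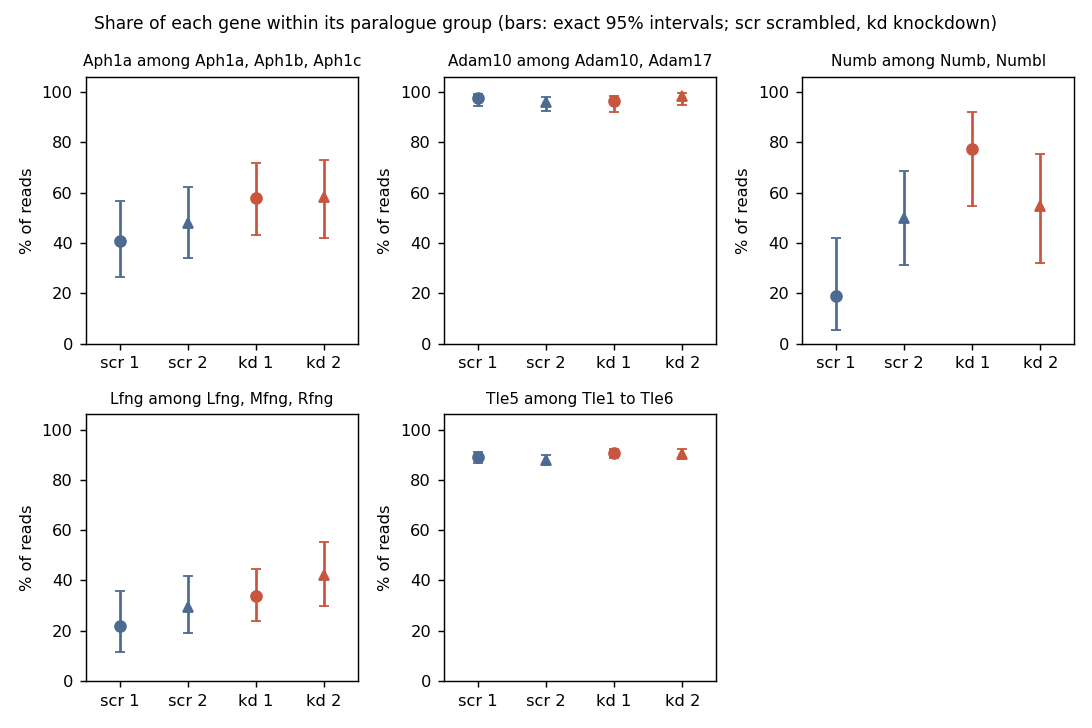
Share of *Aph1a*, *Adam10*, *Numb*, *Lfng* and *Tle5*, in percent, among the reads of their paralogue groups in each library, with 95% exact binomial intervals that cover counting error only. Blue marks scrambled (scr) and red knockdown (kd) libraries, circles library 1 and triangles library 2. *Adam10* and *Tle5* dominated their groups in every library, with at least 96.0% and 88.0% of the reads.

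HnRNP L is known to bind CA repeats, in introns as well as in mature transcripts, so uninterrupted runs of at least 6 CA units were counted along the transcribed strand of each member gene in GRCm39. *Numb* had 9 such runs, *Adam10* 5 and *Adam17* 2, all of them in introns, and the other 6 genes had none. The shortest run that counts is cacacacacaca, and the shortest in *Numb* had 7 units. At least 1 run was found in 61.7% of the 8662 tested genes that could be scanned. The density was 0.702 runs per 10 kilobases in *Numb*, 0.494 in *Adam10* and 0.399 in *Adam17*, against a median of 0.518 over the 6732 tested genes that span over 10 kilobases. The longest run of *Numb* short enough to print, with 13 units, lies on the reverse strand at chr12:83963439-83963464 and is shown in capitals throughout because the whole of it is repeat.
Numb, intron: CACACACACACACACACACACACACA
The opposite repeat, TG on the transcribed strand, was also common, with 15 runs in *Numb*, 12 in *Adam10* and 11 in *Psen2*. Binding was not measured here.

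The wider list of 30 trafficking and ubiquitin ligase genes had 24 genes tested. In it 1 gene was lower at an adjusted p under 0.05, where 3.44% of all genes tested were. This was *Dtx4*, a Deltex E3 ligase that acts on Notch in endocytosis. It had 45 and 72 reads in scrambled and 12 in each knockdown library. It fell by 2.06 on the log2 scale (edgeR adjusted p = 0.000634, standard error 0.32), and it kept an adjusted p under 0.05 in all 14 alternatives. *Ap2a2*, a subunit of the clathrin adaptor AP-2, was next in the list with a log2 fold change of -0.55 (adjusted p = 0.0559 from edgeR). Its adjusted p was under 0.05 in 1 of 14 alternatives, at 0.0458 from edgeR with at least 10 reads in every library. From DESeq2 with the Wald test and local fit it was 0.257.

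*Tle5* (formerly *Aes*) is a short Groucho-family protein that lacks the repeat domain of the full-length TLE corepressors and can oppose them. With 653 and 942 reads in the scrambled and 949 and 765 in the knockdown libraries it was by far the best covered member. Its level was 527 ± 54.9 CPM for scrambled and 656 ± 25.9 CPM for knockdown (SD, n = 2 for each), and the groups did not overlap. The fitted change was 1.25-fold, a log2 fold change of 0.32 with a 95% interval from 0.03 to 0.60 (adjusted p = 0.183 from edgeR), so a rise above 1.52-fold was outside the interval. Within the batches the log2 ratios were 0.47 and 0.17. The gene is on chromosome 10, forward strand, at 81394984 to 81402229. That chromosome had a median log2 fold change of 0.24, and with the chromosome medians removed *Tle5* stood at 0.08 (adjusted p = 0.862 from edgeR).

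The full-length TLE genes had far fewer reads. *Tle1* had 33 and 48 in the scrambled and 57 and 47 in the knockdown libraries, with a log2 fold change of 0.57 (adjusted p = 0.174 from edgeR). *Tle3* had 36 and 66 in the scrambled and 34 and 24 in the knockdown libraries, with -0.60 (adjusted p = 0.218). Without single libraries *Tle3* lay between -0.83 and -0.28, and with the chromosome medians removed it stood at -0.23. *Tle4* had 8 to 12 reads per library, *Tle6* 0 to 2 and *Tle2* 1 read in all, and none of them was tested. *Tle5* took 89.1% and 88.0% of the reads of the family in the scrambled and 90.6% and 90.3% in the knockdown libraries. The list of 20 TLE and corepressor genes had 13 tested and none at an adjusted p under 0.05, with *Ctbp2* at -0.65 (adjusted p = 0.131 from edgeR) and *Rbpj*, the DNA-binding partner of Notch, at 0.52 (adjusted p = 0.141). Without single libraries *Ctbp2* lay between -0.92 and -0.27. Of 11 coactivator genes 8 were tested and none passed, with *Cdk8* at 0.51 (adjusted p = 0.106 from edgeR) and *Maml1* at 0.64 (adjusted p = 0.188).

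The substrates on which the complex acts were read from a list of 18, of which 10 were tested, 3 with a log2 fold change above 0 and 7 below (median -0.35). At an unadjusted p under 0.05 there were 2 higher and 4 lower, *Ephb2*, *Cd44*, *Efnb2* and *Efnb1*, where 10.3% and 11.5% of all genes tested were. The unadjusted p of *Efnb1* from edgeR was 0.0495, and 0.0542 with the batch as a block. *Lrp1*, an endocytic receptor that is cut by gamma-secretase, was the 1 gene of the list past an adjusted p of 0.05, where 2.51% of all genes tested were higher, with 146 and 181 reads in the scrambled and 307 and 205 in the knockdown libraries. It rose by 0.84 on the log2 scale (edgeR adjusted p = 0.00364, standard error 0.16). Without knockdown 1 the call was lost at a log2 fold change of 0.65. *Notch2* was the Notch receptor with enough reads to test. It had 55 and 75 reads in the scrambled and 78 and 101 in the knockdown libraries, a log2 fold change of 0.68 (adjusted p = 0.0676 from edgeR, and 0.0460 with the batch as a block). From edgeR the adjusted p of *Notch2* was also 0.0389 without a filter, and 0.178 with the chromosome medians removed. In the 4 DESeq2 fits it lay between 0.307 and 0.739. Without single libraries the log2 fold change of *Notch2* lay between 0.36 and 0.96. *Ephb2* stood at -1.34 (adjusted p = 0.0567 from edgeR), *Cd44* at -0.40 (adjusted p = 0.0965), *Efnb2* at -0.46 (adjusted p = 0.145), *Efnb1* at -0.92 (adjusted p = 0.228) and *App*, the amyloid precursor, at -0.03 (adjusted p = 0.937). *Notch3* had 9 reads over the 4 libraries, *Notch4* 1 and *Notch1* none. By qPCR the paper found *Notch1* lower in knockdown myoblasts, and it considers qPCR probably better than nanopore reads at detecting weakly expressed genes. Whether reads of *Notch1* were lost in the counting was not tested. *Ngfr*, the p75 neurotrophin receptor, had 1 and 0 reads in the scrambled and 12 and 7 in the knockdown libraries, too few to be tested, and a log2 ratio of summed reads of 4.45 (95% exact interval 1.80 to 9.83). Of the 4 alternatives that gave *Ngfr* an adjusted p, 2 put it under 0.05, the fit without a filter and the fit without scrambled 1. The second left 1 scrambled library, with 0 reads, so nothing is read from it.

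**Figure D4:**
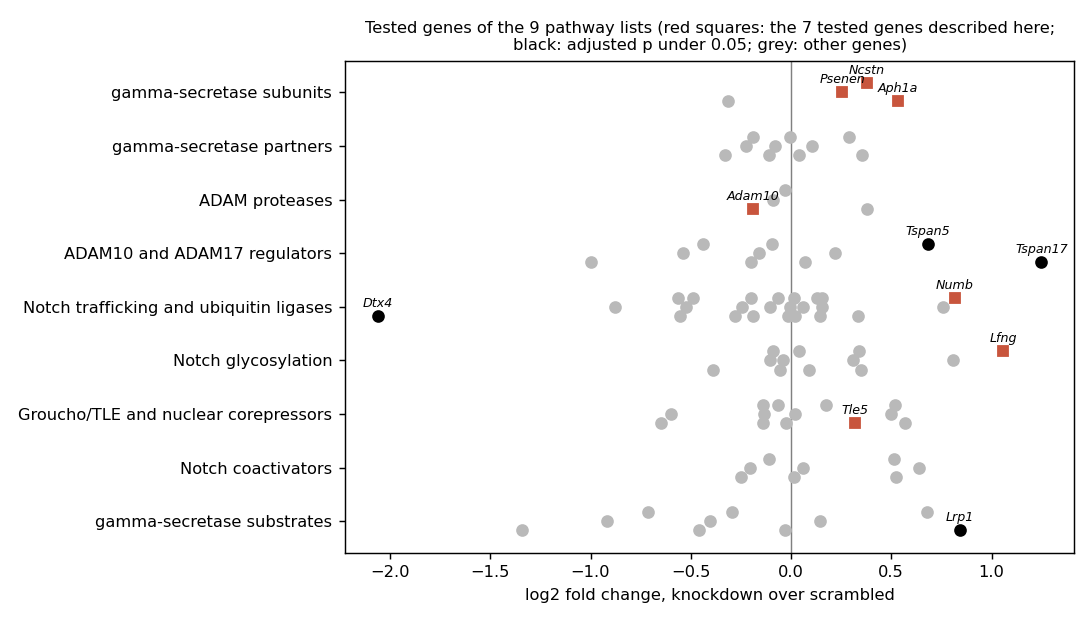
Log2 fold change of knockdown over scrambled for the 95 tested genes of 9 pathway lists, 1 list per line. Red squares are the 7 tested members, black points the genes at an adjusted p under 0.05 from edgeR (*Tspan17*, *Tspan5* and *Lrp1* higher, *Dtx4* lower), and grey points all other tested genes; points are offset vertically for display.

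Over all 9 lists, 136 genes were listed, 125 had reads and 95 were tested. At an adjusted p under 0.05 there were 3 genes higher and 1 lower, 4 of 95, where 5.95% of all genes tested were called, and the median log2 fold change was -0.03. Leaving out single libraries gave between 2 and 6 such genes, 2 without knockdown 1 and 6 without scrambled 1.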

How the data were processed

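The deposited files hold raw counts of direct RNA reads per gene, 1 file per library. The authors made them by basecalling in guppy, alignment to GRCm39 in minimap2 2.17 and counting in HTSeq 0.9.1, versions as in the submitters' processing notes. Between 42.2% and 43.5% of the reads were assigned to no gene and left out. Among all reads, 16.0% to 16.5% were set aside as ambiguous between genes and 22.7% to 23.8% for low quality. The annotation release and strand setting are not given in the sources used here. Symbols and positions came from GENCODE vM39, which held 56017 of the 56748 IDs.

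The groups were tested in edgeR 4.0.16 under R 4.3.3 (quasi-likelihood, TMM factors, filterByExpr), with Benjamini-Hochberg adjustment over all genes tested. Standard errors were taken from the fold change and its F statistic, and 95% intervals from these and the total degrees of freedom. Normalised CPM are counts scaled to the TMM-normalised library. The p-values measure the spread between passages of 1 line per group. Replicate numbers pair libraries through the batch in the labels. Deviations of same-numbered libraries correlated at 0.00258 across the 4501 genes with a mean count of at least 50. The block was an alternative, beside RLE factors, other filters, 4 configurations of DESeq2 1.42.0, mitochondrial genes and *Rn18s* left out, chromosome medians removed, and each library left out. A fit with a library left out has 1 library in that group, so the spread between libraries comes from the other group.

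The members and lists were chosen with earlier results of these data known. The genes named are the members, other genes of their families, a few regulators and substrates, list genes at an adjusted p under 0.05, the 2 tested genes of each list with the smallest p, and the cell type markers; *Timp3*, *Cd44*, *Efnb1*, *Efnb2*, *Tspan14*, *Tspan15*, *Notch1*, *Notch4*, *Ngfr* and overlapping genes fall outside this rule and were named after their values were seen. One gene first placed on the lists was left out of them and is not reported here.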

Additional observations from a re-analysis of the deposited data

How the results depend on the processing

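Of the 97 alternative fits of the 7 tested members, 95 kept the direction and the side of an adjusted p of 0.05. The exceptions were *Lfng*, at a log2 fold change of 1.05 and past the threshold when at least 10 counts were asked for in every library (the number of members past it was then 1), and *Adam10*, which turned to 0.18 with the chromosome medians removed, an offset that takes off the median of chromosome 9. *Numb* could not be fitted under the first of these. *Hnrnpl* was no longer past the threshold with the parametric fit of DESeq2 (-0.78 in both the Wald and the likelihood-ratio test), and single libraries left out gave -1.03 to -0.48. For *Psen2* the log2 ratio of summed reads lay between -0.51 and 0.91 without single libraries, and for *Adam17* between -1.38 and 0.039. The number of pathway list genes past the threshold was 4, and 8 without a filter, 7 with at least 10 counts in every library, 2 with either DESeq2 test and the parametric fit, and 2 to 6 without single libraries. The replicate block changed the call at an adjusted p of 0.05 of *Notch2* and *Des* among the genes named, and *Lfng* stood at 1.08 under the block. The cause of these changes was not tested. Depth limits *Psen2*, *Adam17*, *Numb* and *Lfng* most, with 21 to 87 reads over the 4 libraries.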
